A study of Mus musculus with 8 samples.

Results

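Elavl4, Clmp, Npy, Stra6, Dcn, Slc14a1, Tcaf2 and Mucl1 were each close to absent in one genotype of bone marrow-derived dendritic cells (BMDCs) and plainly counted in the other, without LPS, with LPS or in both states. These 8 genes, of 47937 gene IDs in the tables, were selected on the measured values of the present libraries for near absence in WT or in 3xGrk-/- cells, so the difference between genotypes is described for them and not tested. Elavl4, Clmp, Npy, Stra6 and Dcn were the members counted in 3xGrk-/- cells, and Slc14a1, Tcaf2 and Mucl1 those counted in WT cells. BMDCs were grown from mouse bone marrow with 20 ng/ml GM-CSF for 8 days and then kept without stimulus or given LPS at 20 ng/ml for a further 24 h. 3xGrk-/- cells (labelled Grk 3xKO) came from mice with floxed Grk2 and Grk6 (fl/fl), a germline deletion of Grk3 (Grk3-/-) and Vav-iCre, which is active from early hematopoietic precursors on, and the WT controls lacked Cre. Donors were adult, and the labels give no age. Each of the 4 groups held 2 libraries, 8 in all, with 4713305 to 6933358 reads counted on genes per library. RNA was isolated in technical replicates, so libraries of one group may differ only technically, and p-values measure no more than that spread.

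GRKs are kinases that phosphorylate activated G protein-coupled receptors and thereby start their desensitization. LPS, from the outer membrane of bacteria, activates dendritic cells through a Toll-like receptor. GM-CSF cultures are known to hold both dendritic cells and macrophages, and they can retain granulocytes and mast cells. The 8 genes have no family in common. Elavl4 codes for an RNA-binding protein known from neurons, Npy for neuropeptide Y, a secreted peptide, and Stra6 for the receptor through which cells take up retinol from its carrier RBP4. Dcn codes for decorin, a small leucine-rich proteoglycan that binds collagen, and Clmp for an adhesion molecule of the CTX family of immunoglobulin proteins. Slc14a1 codes for a urea transporter known from red cells, Tcaf2 for a protein that associates with the cold-gated channel TRPM8, and Mucl1 for a small mucin-like protein.

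The 8 genes lie on 6 chromosomes in GRCm38, none of them shared with Grk2 (chromosome 19), Grk3 (chromosome 5) or Grk6 (chromosome 13). Elavl4 (ENSMUSG00000028546) lies on chromosome 4 at 110203722-110351909, Dcn (ENSMUSG00000019929) on chromosome 10 at 97479609-97518143, Slc14a1 (ENSMUSG00000059336) on chromosome 18 at 78100091-78142119 and Mucl1 (ENSMUSG00000060311) on chromosome 15 at 103751919-103755469. Tcaf2 (ENSMUSG00000029851, 42623016-42645254) and Npy (ENSMUSG00000029819, 49822710-49829507) share chromosome 6, with starts 7.2 Mb apart. Clmp (ENSMUSG00000032024, 40685962-40785319) and Stra6 (ENSMUSG00000032327, 58063788-58153996) share chromosome 9, 17.4 Mb apart. Clmp and Stra6 overlap genes on the opposite strand, so their reads are uncertain to the extent that strand was not used in counting.

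The targeted genes were checked before the others. Grk2 was lower in 3xGrk-/- cells, with a log2 fold change of -1.11 without and -1.89 with LPS. Grk6 changed by -1.19 and -1.54 and Grk3 by -0.36 and -0.42, all past an adjusted p of 0.05 (edgeR, quasi-likelihood). Reads of all 3 targeted genes remained in 3xGrk-/- libraries. Grk3, deleted in the germline, had 1786 and 1514 counts there and 1767 and 2431 in WT libraries without LPS, so that reads counted over the gene do not show its deletion. All 16 defining markers of BMDC cultures were counted, and the macrophage receptor gene Csf1r stood at a mean of 413 CPM in WT and 763 CPM in 3xGrk-/- unstimulated cells, and at 61.6 and 552 CPM with LPS (CPM, counts scaled by the TMM-adjusted total of each library). Adgre1, the gene of the macrophage marker F4/80, had 104 and 266 CPM unstimulated and 207 and 1170 CPM with LPS. The RNA came from whole cultures, in which fewer cells of a type and less RNA per cell cannot be told apart, and the part of these markers in the differences below was not tested.

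The stretches of 250 bases just before a transcription start of RefSeq are shown for Elavl4, Npy and Stra6, because these genes were counted in one genotype and close to absent in the other. They come from GRCm38.p6, and stretches were taken for 4 of the 8 genes. Elavl4 and Stra6 have several RefSeq starts, and the outermost is shown for each. That of Stra6 lies inside the longer GENCODE span of the gene given above, past its first base. The stretch before Tcaf2 overlaps an annotated exon and is not shown. Each runs 5′ to 3′ on the gene's strand, and capitals mark a match to a searched motif.
Elavl4, chr4:110351912-110352161, minus strand: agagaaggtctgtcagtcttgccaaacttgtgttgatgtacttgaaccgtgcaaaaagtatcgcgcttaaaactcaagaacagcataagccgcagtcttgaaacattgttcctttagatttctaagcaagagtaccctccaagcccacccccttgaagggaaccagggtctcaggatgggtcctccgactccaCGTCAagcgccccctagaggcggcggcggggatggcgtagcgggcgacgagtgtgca
Npy, chr6:49822460-49822709, plus strand: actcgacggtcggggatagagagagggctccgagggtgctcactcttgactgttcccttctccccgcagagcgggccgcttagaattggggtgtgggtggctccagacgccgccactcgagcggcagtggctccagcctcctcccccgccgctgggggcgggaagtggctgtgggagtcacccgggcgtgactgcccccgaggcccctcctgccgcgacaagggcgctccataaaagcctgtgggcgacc
Stra6, chr9:58128838-58129087, plus strand: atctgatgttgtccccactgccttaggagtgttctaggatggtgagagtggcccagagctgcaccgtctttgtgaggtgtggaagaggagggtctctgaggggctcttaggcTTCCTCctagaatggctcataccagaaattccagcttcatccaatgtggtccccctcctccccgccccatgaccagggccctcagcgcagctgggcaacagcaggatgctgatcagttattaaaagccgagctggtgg

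The motifs searched on both strands were TGACGTCA (the full cAMP response element), TGACG (contained in it), TGANTCA (AP-1), CACGTG (E-box), GAGGAA (PU.1 core) and TATAAA. The stretch shown for Elavl4 held 1 match to TGACG, on the opposite strand, and no other. Among 32851 stretches of the same length before mouse genes, 17.8% held TGACG and 1.55% the full element. The stretch before Stra6 held 1 match to GAGGAA, on the opposite strand, and 23.3% of all stretches held that motif. The stretch before Npy held none of the 6 motifs, and no shown stretch held TGANTCA (6.75% of all), CACGTG (6.02%) or TATAAA (12.4%). A match is a description of letters, not of a bound site.

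Elavl4 was counted in 3xGrk-/- cells, at a lower level with LPS than without. The unstimulated 3xGrk-/- libraries had 105 and 113 counts of Elavl4 and the unstimulated WT libraries 1 and 0. With LPS, 3xGrk-/- libraries had 11 and 11 counts and WT libraries 0 and 0. The genotypes did not overlap in either state. Here and for the other members below, lack of overlap between genotypes may follow from the selection on these values and is no result of its own. In CPM, Elavl4 stood at 17.7 ± 2.69 (SD, n = 2) in unstimulated and 1.89 ± 0.157 (SD, n = 2) in LPS-stimulated 3xGrk-/- cells, and both WT groups lay at or under 3 counts per library and are not ordered. The ratio of summed scaled counts of Elavl4 was 217 in favour of unstimulated 3xGrk-/- cells, with a 95% counting interval of 38.6 to 8620. It rested on 1 WT count, which lay in replicate 1. Without WT replicate 2 the ratio was 92.5, and without WT replicate 1, where no WT count remained, Elavl4 was at least 41.6-fold higher in 3xGrk-/- cells, against 3 counts. With LPS it was at least 7.59-fold higher in 3xGrk-/- cells, against 3 counts over both WT libraries, and at least 4.1-fold and 3.49-fold without WT replicate 1 or 2.

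Clmp was counted in 3xGrk-/- cells in both states and was low but present in WT cells. Unstimulated WT libraries had 2 and 8 counts of Clmp, and unstimulated 3xGrk-/- libraries 239 and 206. With LPS, WT libraries had 15 and 15 counts and 3xGrk-/- libraries 473 and 463. The order of the groups, from high to low, was LPS-stimulated 3xGrk-/- (80.4 ± 7.91 CPM, SD, n = 2), unstimulated 3xGrk-/- (35.9 ± 0.157), LPS-stimulated WT (2.5 ± 0.286) and unstimulated WT (0.754 ± 0.528), and no group's libraries overlapped with those of the next. The ratio between genotypes for Clmp was 44.4 unstimulated (counting interval 23.9 to 93.1) and 32.3 with LPS (22.5 to 48.1). Without unstimulated WT replicate 2, which held 8 of the 10 WT counts, the unstimulated ratio was 94.4. It was 31.8 without unstimulated WT replicate 1.

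Npy and Stra6 were both highest in LPS-stimulated 3xGrk-/- cells. For Npy, WT libraries had 4 and 2 counts unstimulated and 1 and 1 with LPS, against 23 and 17 and then 99 and 122 counts in 3xGrk-/- libraries. The 3xGrk-/- groups stood at 18.9 ± 1.21 CPM with LPS and 3.21 ± 0.362 CPM without (SD, n = 2), above both WT groups, which are too low to be ordered. The Npy ratio was 6.65 unstimulated (counting interval 2.8 to 19.2) and 114 with LPS (31.3 to 950). The unstimulated Npy ratio was 11.4 without WT replicate 1 and 4.24 without WT replicate 2.

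For Stra6, unstimulated WT libraries had 0 and 1 counts and unstimulated 3xGrk-/- libraries 59 and 29. With LPS the counts of Stra6 were 1 and 4 in WT and 292 and 295 in 3xGrk-/- libraries. Its level was 50.4 ± 3.83 CPM in LPS-stimulated and 6.96 ± 2.72 CPM in unstimulated 3xGrk-/- cells (SD, n = 2), with no overlap between them and none with WT. The Stra6 ratio was 87.7 unstimulated (counting interval 15.3 to 3500) and 122 with LPS (51.8 to 376). Single WT libraries moved both. The unstimulated Stra6 ratio was 50.4 without WT replicate 1, and without WT replicate 2, where no WT count remained, Stra6 was at least 12.5-fold higher, against 3 counts. With LPS it was 82.1 without WT replicate 1 and 279 without WT replicate 2.

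Dcn was absent from every unstimulated library and appeared with LPS. All 4 unstimulated libraries had 0 counts, which allows up to 0.423 to 0.57 CPM per library (3 counts; counting error only), so no ratio between genotypes can be given there. With LPS, Dcn had 13 and 7 counts in WT and 699 and 698 in 3xGrk-/- libraries. The level was 1.71 ± 0.897 CPM in WT and 120 ± 10.1 CPM in 3xGrk-/- cells (SD, n = 2), a ratio of 72.3 (counting interval 46.6 to 119). The Dcn ratio was 112 without WT replicate 1 and 51.1 without WT replicate 2.

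Slc14a1 and Tcaf2 were counted mainly in WT cells, with a wider gap after LPS. Slc14a1 had 37 and 53 counts in unstimulated WT and 20 and 8 in unstimulated 3xGrk-/- libraries, then 217 and 228 in WT and 2 and 4 in 3xGrk-/- libraries with LPS. Its groups ran, from high to low, from LPS-stimulated WT (37 ± 2.95 CPM) over unstimulated WT (7.25 ± 0.31) and unstimulated 3xGrk-/- (2.2 ± 1.15) to LPS-stimulated 3xGrk-/- (0.505 ± 0.2; SD, n = 2), without overlap of neighbours. The Slc14a1 ratio of WT to 3xGrk-/- was 3.22 unstimulated (counting interval 2.09 to 5.12) and 71.7 with LPS (32.7 to 196). The first was 5.24 without unstimulated 3xGrk-/- replicate 1 and 2.42 without replicate 2. The second was 56.9 without LPS-stimulated 3xGrk-/- replicate 1 and 101 without replicate 2. With all libraries, unstimulated 3xGrk-/- cells held 31% of the WT level, so near absence does not describe Slc14a1 in unstimulated cells.

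Tcaf2 had 209 and 239 counts in unstimulated WT and 42 and 28 in unstimulated 3xGrk-/- libraries. With LPS it had 501 and 565 counts in WT and 13 and 9 in 3xGrk-/- libraries. The order of its groups was the same as for Slc14a1, at 88.3 ± 2.64, 36.7 ± 4.26, 5.59 ± 1.03 and 1.91 ± 0.643 CPM (SD, n = 2), again without overlap of neighbours. The Tcaf2 ratio of WT to 3xGrk-/- was 6.42 unstimulated (counting interval 4.98 to 8.38) and 46.8 with LPS (30.8 to 75).

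Mucl1 was also highest in WT cells, but its gap between genotypes was narrower after LPS. Unstimulated WT libraries had 109 and 115 counts of Mucl1 and 3xGrk-/- libraries 2 and 5. With LPS the counts were 311 and 346 in WT and 40 and 68 in 3xGrk-/- libraries. In CPM, Mucl1 stood at 54.5 ± 2.15 in LPS-stimulated WT, 18.5 ± 3.19 in unstimulated WT, 9.13 ± 2.63 in LPS-stimulated 3xGrk-/- and 0.585 ± 0.401 in unstimulated 3xGrk-/- cells (SD, n = 2), and no neighbouring groups overlapped. The Mucl1 ratio was 32.1 unstimulated (counting interval 15.3 to 80.8) and 5.88 with LPS (4.79 to 7.27). The unstimulated Mucl1 ratio was 20.9 without 3xGrk-/- replicate 1 and 60.2 without 3xGrk-/- replicate 2.

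**Figure D1:**
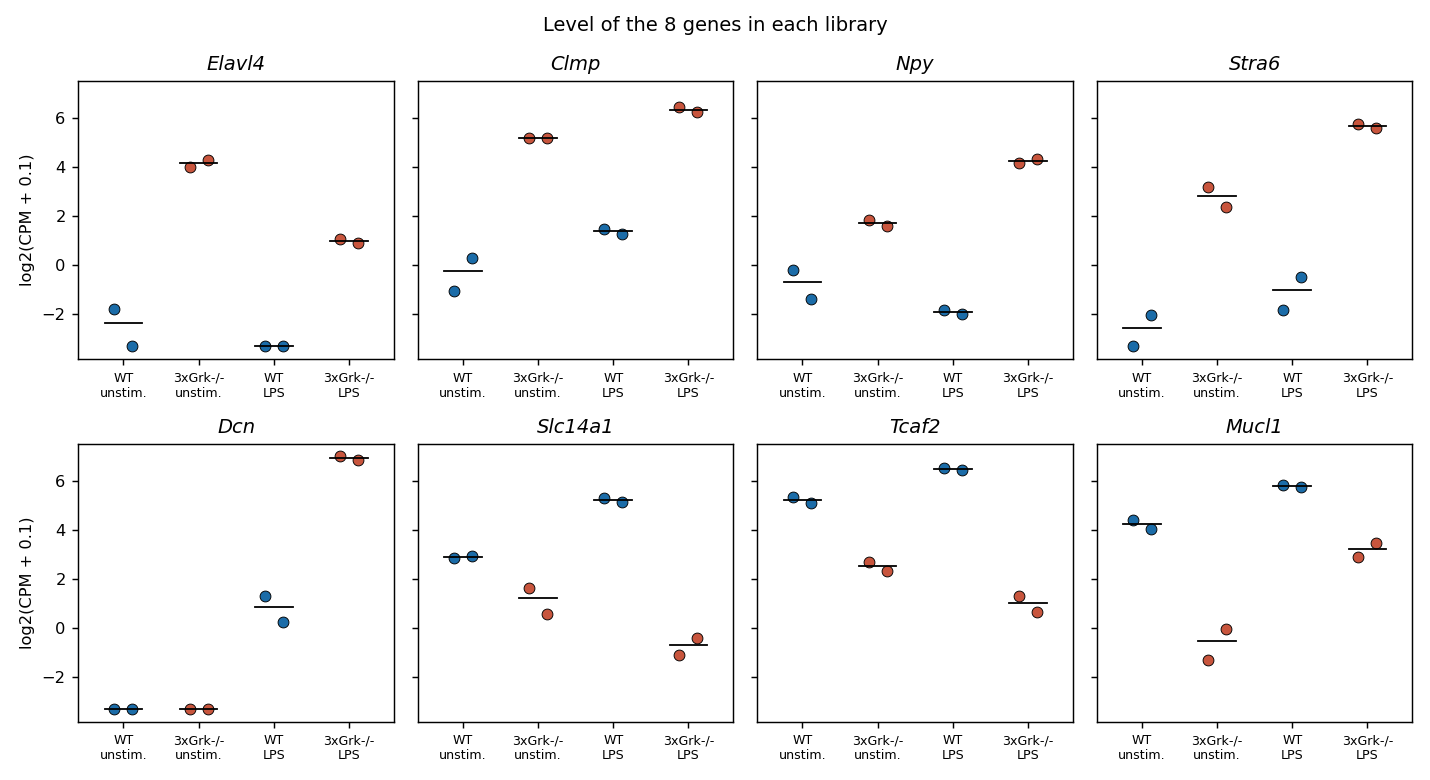
Level of the 8 genes as log2(CPM + 0.1) on the vertical axis, with 1 point per library, a line at the mean of the 2 libraries, WT in blue and 3xGrk-/- in red. Dcn lies at the bottom of the axis in all 4 unstimulated libraries, at 0 counts, and Elavl4 is the only one of the 5 genes higher in 3xGrk-/- cells whose level is lower with LPS than without.

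A ratio of 10 or more between genotypes was reached by 4 of the 7 genes with a ratio in unstimulated cells and by 6 of 8 with LPS. The label of an all-or-none gene therefore held for 10 of 16 pairs of gene and stimulation. The exceptions were Npy, Slc14a1 and Tcaf2 unstimulated, Dcn unstimulated (0 in both genotypes), and Elavl4 and Mucl1 with LPS, where the Elavl4 value is a lower bound. No member had 3 counts or fewer in both libraries of one genotype and 20 or more in both of the other in both states. Compared per kilobase of exon in its highest group, Mucl1 had 68.3 CPM per kb, Npy 33.3, Dcn 20.6, Tcaf2 18.5, Clmp 17.5, Slc14a1 9.25, Stra6 8.65 and Elavl4 3.29. The gene with the highest level by length was thus one of WT cells, and Npy, with 221 counts in LPS-stimulated 3xGrk-/- cells, ranked above Dcn, with 1397, because its exons add up to 566 bases against 5838.

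**Figure D2:**
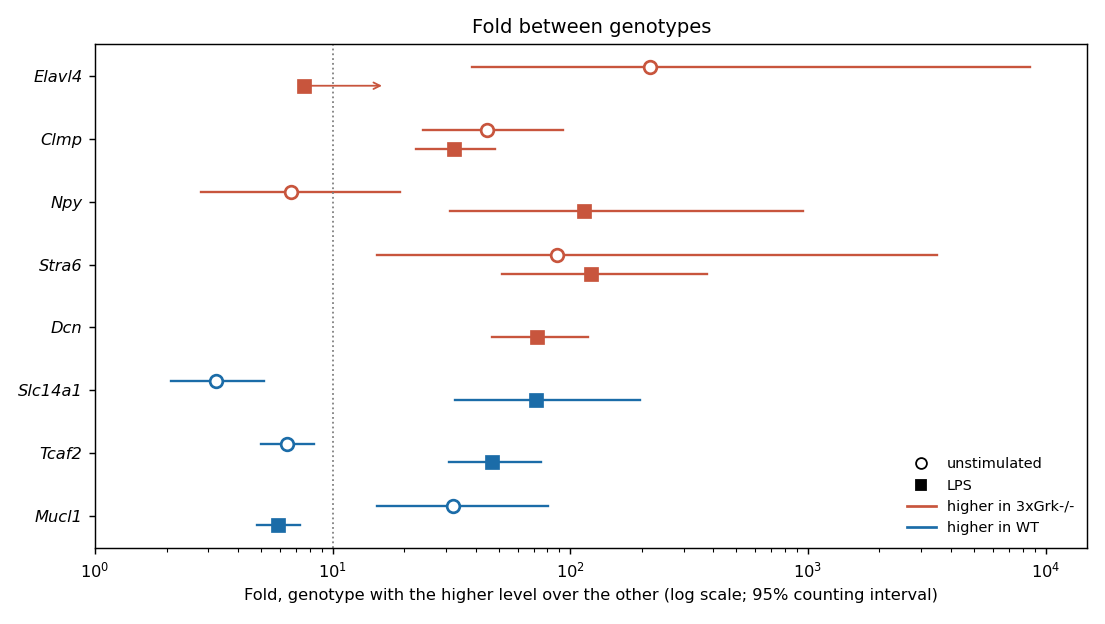
Ratio of summed scaled counts, the genotype with the higher level over the other, on a log scale, with open circles for unstimulated and squares for LPS-stimulated cells and bars for the 95% counting interval. The dotted line marks 10, an arrow marks a lower bound, and 10 of the 15 plotted ratios lie to the right of the line.

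As background for these values, 44.7% of the 12000 genes tested differed between genotypes in unstimulated cells at an adjusted p under 0.05 (edgeR's quasi-likelihood test), 22.1% higher and 22.7% lower in 3xGrk-/- cells. With LPS it was 48.6% of 11830 genes, 24.7% higher and 24% lower. The filter on low counts kept 7 of the 8 members in the unstimulated and 8 in the LPS table, and nothing is read from their calls, since the members were selected on this contrast.

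The response to LPS was compared in the genotype that expresses each gene. The selection looked at all 4 groups, so that a gene could enter through its level in one state, and the responses of the 8 genes are therefore given as ratios, without a test. As background, one edgeR fit of the 8 libraries tested 12541 genes for LPS. In that fit 55.4% of all genes changed with LPS in 3xGrk-/- cells, 28% upwards and 27.4% downwards, and 60.3% in WT cells, 29.5% upwards and 30.8% downwards. A change with LPS is therefore the more common outcome for any gene in these libraries.

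In 3xGrk-/- cells Stra6 with LPS was at 7.08-fold its unstimulated level (counting interval 5.65 to 8.96) and Clmp at 2.23-fold (1.99 to 2.5). Elavl4 was at 0.107 of its unstimulated level with LPS (counting interval 0.0658 to 0.166), Npy at 5.86-fold (4.17 to 8.43) and Dcn at least 494-fold higher, against 3 counts over the unstimulated libraries.

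In WT cells Slc14a1 with LPS was at 5.05-fold its unstimulated level (counting interval 4.02 to 6.41), Mucl1 at 3-fold (2.57 to 3.5) and Tcaf2 at 2.43-fold (2.18 to 2.72). Elavl4 was thus the one gene of the 8 that was lower with LPS in the genotype that expresses it.

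In the genotype with the lower level the direction of the change with LPS was not always the same, and these values are likewise given without a test. In 3xGrk-/- cells Slc14a1 was at 0.227 of its unstimulated level with LPS (counting interval 0.077 to 0.56) and Tcaf2 at 0.334 (0.197 to 0.545), where both were higher in WT cells. Npy in WT cells was at 0.341, on 2 against 6 counts, with an interval of 0.0336 to 1.91 that includes 1. Mucl1 was 16.4-fold higher with LPS in 3xGrk-/- cells (7.68 to 41.7), Clmp 3.07-fold higher in WT cells (1.46 to 7.03), and Dcn at least 6.81-fold higher in WT cells. Stra6 in WT cells was 5.11-fold higher on 5 against 1 counts, with an interval of 0.572 to 242, and Elavl4 in WT cells had 1 count unstimulated and 0 with LPS, so that no ratio is given.

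**Figure D3:**
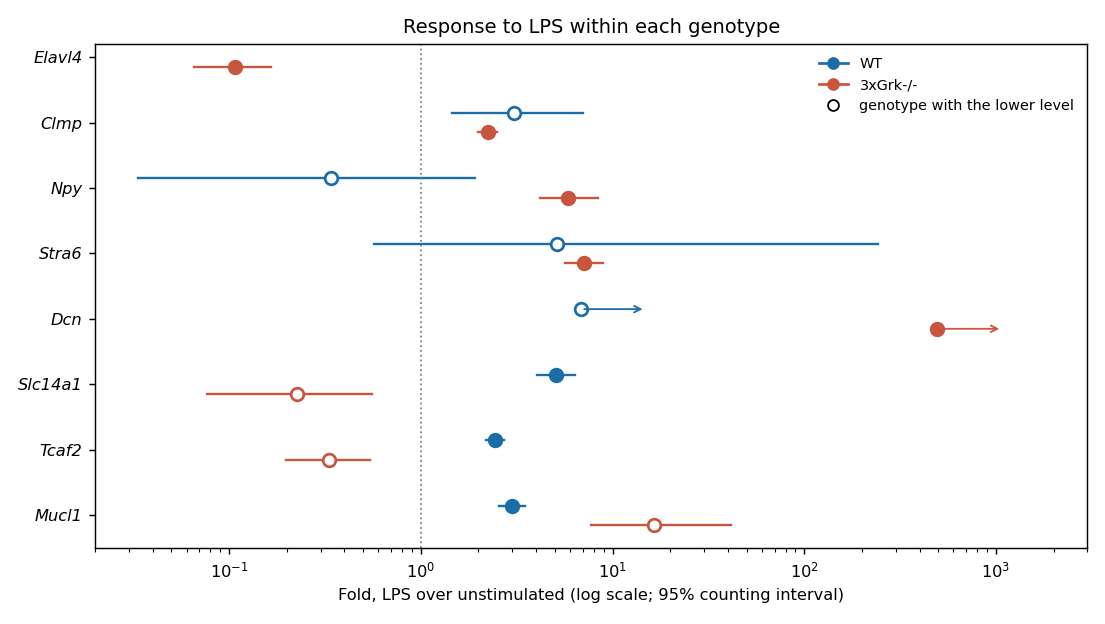
Ratio of LPS-stimulated to unstimulated cells on a log scale, WT in blue and 3xGrk-/- in red, with filled points for the genotype with the higher level, bars for the 95% counting interval, an arrow for a lower bound and a dotted line at 1. In 3xGrk-/- cells Slc14a1 (0.227) and Tcaf2 (0.334) lie left of the line while their WT points lie right of it, and both Mucl1 points lie right of it.

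The genes of the members' own families and pathways, and markers of other cell types, were followed in 14 lists of 194 genes in all. Of these, 69 were tested in unstimulated cells, with 18 higher and 27 lower in 3xGrk-/- cells, and 78 with LPS, with 30 higher and 30 lower. Over all genes 44.7% and 48.6% were called, and the counts of each list below are read against these shares, with lists near them, such as 4 of 10 retinoid genes unstimulated, telling nothing apart from all genes. The median log2 fold change over all genes tested was 0 unstimulated and -0.01 with LPS.

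Elavl4 stood alone in its family. Elavl2 and Elavl3, its neuronal relatives, had 0 counts in all 8 libraries, and 8 of the 16 ELAVL and neuronal genes did. Elavl1, the member of the family that is expressed in most cells, had a log2 fold change of -0.01 unstimulated and -0.15 with LPS and was not called. The other neuronal genes, such as Snap25, Rbfox3 and Dcx at 0 counts, had at most 10 counts in a library.

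Around Npy, 6 of the 12 genes of the NPY system were at 0 counts in all libraries, among them the receptor genes Npy2r, Npy4r and Npy6r and the related peptides Pyy and Ppy. The receptor gene Npy1r had 1 to 13 counts per library. Dpp4, a peptidase that trims neuropeptide Y, was lower in 3xGrk-/- cells, with log2 fold changes of -0.54 unstimulated and -0.55 with LPS. With LPS Cpe, a carboxypeptidase of prohormones, was lower (-2.42) and Fap, a peptidase related to Dpp4, was higher (1.34). Of the 4 genes tested with LPS, 1 was higher and 2 were lower.

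For Clmp, 3 of the 4 tested CTX family and related adhesion genes were higher in 3xGrk-/- cells in each state, with a median log2 fold change of 0.28 unstimulated and 0.87 with LPS. F11r, the gene of junctional adhesion molecule A, changed by 0.94 and 1.28, and Vsir by 0.33 and 0.46. Jaml was higher unstimulated (0.12) and Jam2 with LPS (1.78). None of them was near absent in WT cells as Clmp was, the lowest being Jam2 with 14 to 24 counts per WT library.

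Genes of retinoid handling and of the response to retinoic acid were measured around Stra6. Of 10 tested unstimulated, 4 were higher in 3xGrk-/- cells and 0 lower, with a median log2 fold change of 0.26, while LPS-stimulated cells had 8 of 11 higher, 0 lower and a median of 1.54. Stra6l, a relative of Stra6 known as a receptor for RBP4, had 8 and 10 counts in WT and 35 and 31 in 3xGrk-/- unstimulated libraries, and 6 and 7 against 220 and 231 with LPS (log2 fold changes 1.85 and 5.13). Cyp26b1, which breaks down retinoic acid, changed by 3.94 and 3.77. Aldh1a2, which makes retinoic acid, was higher unstimulated (1.59), and with LPS its value was 0.13 (adjusted p = 0.0713, edgeR). Rbp4 was higher with LPS (2.66), on 0 and 4 WT against 13 and 13 3xGrk-/- counts.

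In LPS-stimulated 3xGrk-/- libraries Dcn had the most counts of its family, while in LPS-stimulated WT libraries Lum had more. Of the other 13 small leucine-rich proteoglycan genes, 6 were at 0 counts in all libraries and 1, Lum, was tested with LPS. Lum, which lies 46985 bp from Dcn, had 0 counts in the unstimulated libraries as Dcn did, but with LPS 78 and 56 counts in WT and 42 and 43 in 3xGrk-/- libraries (log2 fold change -0.62). Among 17 fibroblast and stromal markers, Pdgfra, Mgp and Fbln1 had 0 to 3 counts in every library. The summed level of that list ran from 76.5 to 83 CPM in WT and from 41.6 to 45.6 CPM in 3xGrk-/- libraries with LPS. Thy1 set the direction of that sum, which without Thy1 ran from 13.2 to 20.5 CPM in WT and from 28.6 to 36.2 CPM in 3xGrk-/- libraries. Col3a1 (3.48) and Col1a1 (2.14) were higher and Thy1 (-2.51) was lower in LPS-stimulated 3xGrk-/- cells, with at most 35 counts of either collagen gene in a library, against 698 and 699 of Dcn. In all, 4 of 8 stromal markers tested with LPS were higher and 2 lower, and of 3 tested unstimulated 2 were lower, Serpinf1 (-3.29) and Lepr (-2.28).

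Slc14a1 was set beside genes of urea metabolism and of red cells. Slc14a2, the other urea transporter gene, had 1 to 11 counts per library. Of the 12 genes of this list, 4 of 8 tested were higher and 1 lower unstimulated, and 5 of 6 higher and 1 lower with LPS. Of 14 erythroid markers, 7 were at 0 counts in all libraries, Alas2 and Slc4a1 among them. Gata1, a regulator shared by red cells, mast cells and eosinophils, was lower in 3xGrk-/- cells (-2.67 and -3.93), on 9 to 26 counts in WT and 0 to 3 in 3xGrk-/- libraries. The globin gene Hbb-bt was higher unstimulated (1.31) and lower with LPS (-1.58). The sum of the erythroid list was 5.07 to 7.79 CPM in WT and 8.68 to 9.79 CPM in 3xGrk-/- libraries unstimulated, and 14.9 to 20.7 and 5.33 to 5.64 CPM with LPS. Without Hbb-bt the unstimulated sum was 2.4 to 3.42 CPM in WT and 0.521 to 1.05 CPM in 3xGrk-/- libraries, the other way round.

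Tcaf2 changed together with its paralog and neighbour Tcaf1, 22748 bp away on the same strand. Tcaf1 had 100 and 130 counts in WT and 17 and 22 in 3xGrk-/- unstimulated libraries, and 97 and 69 against 14 and 10 with LPS (log2 fold changes -2.56 and -2.75). Unlike Tcaf2, Tcaf1 was not higher in WT libraries with LPS than without, at a mean of 14 and 18.7 CPM. Tcaf3 and Trpm8 were at 0 counts in all libraries. Of the 6 tested genes of TCAF proteins and TRP channels, 1 was higher and 2 were lower unstimulated, and 3 higher and 1 lower with LPS. Trpm4 was among the higher ones (0.92 and 1.08), with Trpm7 (0.34) with LPS, and Trpv4 was lower unstimulated (-1.26). Paralogs can share reads, and the counts of Tcaf1 and Tcaf2 are uncertain to that extent.

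Around Mucl1, 10 of 15 mucin and epithelial genes were at 0 counts in all libraries, the keratin genes Krt8, Krt18 and Krt19 among them, and 2 were tested. Cdh1, the gene of E-cadherin, was lower in 3xGrk-/- cells (-1.97 unstimulated and -1.16 with LPS), and Epcam was lower unstimulated (-3.8). The sum of the neutrophil and eosinophil markers was higher in WT libraries, as Mucl1 was, but unlike Mucl1 it was lower there with LPS. The sum was 2000 to 2050 CPM in WT and 589 to 618 CPM in 3xGrk-/- libraries unstimulated. With LPS it was 1480 to 1630 CPM and 278 to 286 CPM. Of these 18 genes, 12 were lower in 3xGrk-/- cells unstimulated (median log2 fold change -0.9) and 16 with LPS (-1.73), with 0 higher, and the eosinophil genes Epx (-5.89 and -6.37), Ear1 (-5.2 and -5.08), Prg2 (-4.27 unstimulated) and Ear6 (-4.35 with LPS) led them. Prg2 alone had a mean of 613 CPM in WT and 31.8 CPM in 3xGrk-/- unstimulated libraries, and no sum was taken without the eosinophil genes. The part of these markers in the differences of Mucl1, Slc14a1 and Tcaf2 was not tested.

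Megakaryocyte and platelet markers summed to 65.5 to 69.2 CPM in WT and 363 to 377 CPM in 3xGrk-/- libraries unstimulated, and 34.9 to 42.7 and 183 to 187 CPM with LPS. Without Pf4 and Ppbp the sum was 47.5 to 49.3 CPM in WT and 43.2 to 44 CPM in 3xGrk-/- libraries unstimulated, and 27.2 to 37.5 and 58.9 to 64.3 CPM with LPS. Pf4, the gene of platelet factor 4, was higher in 3xGrk-/- cells (5.03 and 4.46), and Ppbp (2.59) was higher unstimulated and Vwf (2.79) with LPS, but Itga2b was lower (-1.9 and -2.61). In all 3 of 5 tested were higher and 2 lower unstimulated, and 5 of 7 higher and 1 lower with LPS. Of 7 mast cell and basophil markers tested, 2 were higher and 3 lower unstimulated, Gata2 (1.41), Mcpt8 (-1.54) and Prss34 (-1.16) among them, and 1 was higher and 3 lower with LPS, Hdc (2.2), Ms4a2 (-3.93) and Mcpt8 (-1.24) among them. Of 10 lymphocyte markers only Ighm was tested, lower unstimulated (-1.08).

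**Figure D4:**
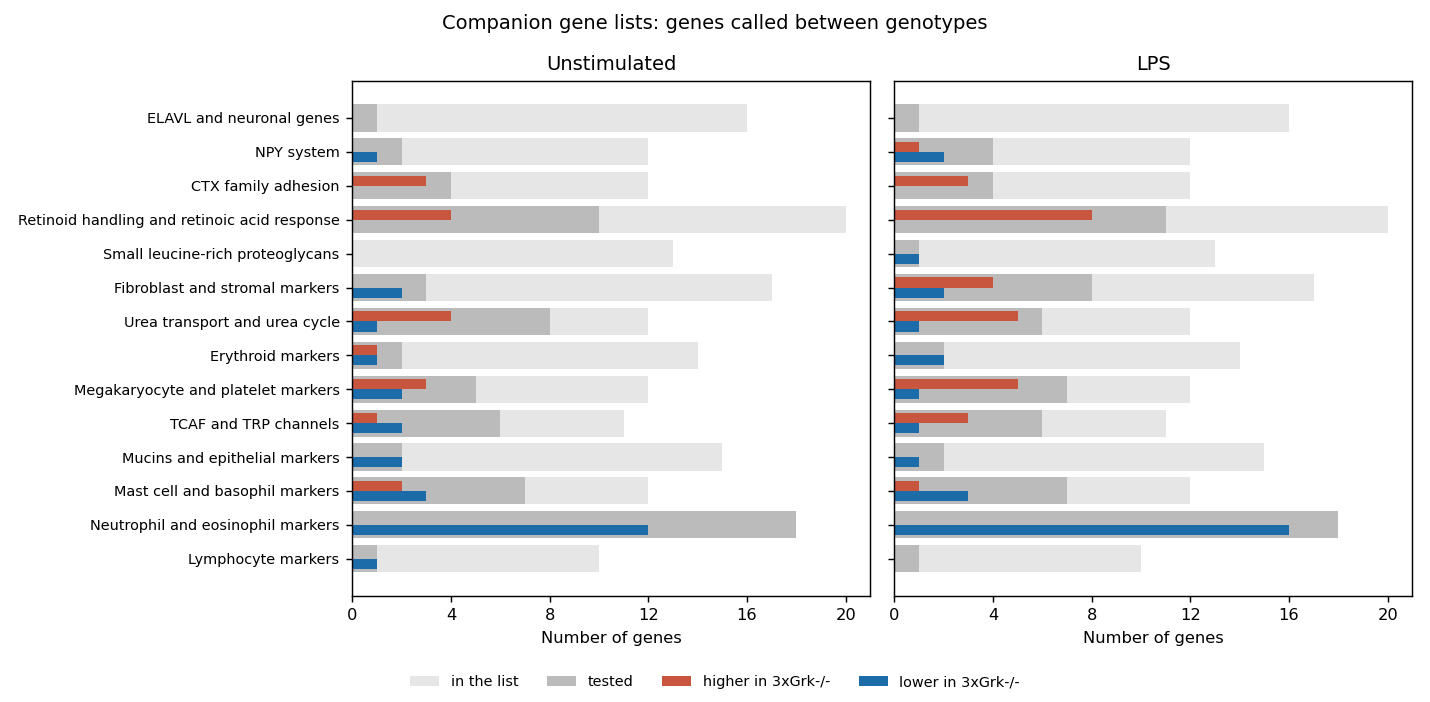
Number of genes in each of the 14 lists (light grey), number tested (dark grey) and numbers called higher (red) or lower (blue) in 3xGrk-/- cells, for unstimulated cells on the left and LPS-stimulated cells on the right. With LPS, 8 retinoid genes were called higher and 0 lower, and 16 neutrophil and eosinophil markers were called lower and 0 higher.

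Genes near the members were compared because the selection did not use them. Within 250 kb of the 8 genes lay 84 annotated genes. In unstimulated cells 16 of them were tested, with 5 higher and 4 lower in 3xGrk-/- cells, and with LPS 17, with 5 higher and 9 lower, beside 44.7% and 48.6% over all genes. Among the neighbours called, Ccdc33 beside Stra6 and Tcaf1 beside Tcaf2 had the largest differences. Beside Elavl4, higher in 3xGrk-/- cells, Dmrta2 was lower (-2.06 and -2.03). Beside Clmp, Ubash3b was higher (0.49 unstimulated) and Hspa8 lower (-0.68 with LPS). Beside Stra6, Cyp11a1 was lower (-0.71 unstimulated), and Ccdc33, which overlaps Stra6 on the opposite strand, was higher with LPS (2.98, on 24 and 16 counts in 3xGrk-/- libraries against 2 and 3), which reads of Stra6 may have reached. Beside Slc14a1, higher in WT cells, Pstpip2 was higher in 3xGrk-/- cells (0.76 and 0.45), and beside Mucl1 Pde1b was higher in 3xGrk-/- cells unstimulated (0.53). No neighbour of Npy was tested, and Tcaf1 was the only tested neighbour of Tcaf2.

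The genes with the most similar profiles over the 8 libraries were named by the root-mean-square difference of log2 CPM (prior count of 2) after each profile was centred on its own mean. For Stra6 these were Ccl7 (0.39), which codes for a monocyte chemokine, Ctsl (0.53), which codes for the lysosomal protease cathepsin L, and Pmp22 (0.54). Clmp was nearest to Pmp22 (0.44), Apoe (0.45), the gene of apolipoprotein E, and Ctsl (0.64), so that Clmp and Stra6 had 2 of their 3 nearest genes in common. Npy was nearest to Stra6l (0.36), Rhov (0.45) and Ecm1 (0.49). The members were selected on values of these same libraries, so likeness between members, or near genes in common, may follow from that selection.

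Slc14a1 and Tcaf2, both selected for near absence in 3xGrk-/- cells, were each other's nearest gene of all genes compared (0.53). Both had Ccdc85a next (0.61 and 0.62). Ccdc85a had 61 and 93 counts in unstimulated WT, 16 and 15 in unstimulated 3xGrk-/-, 240 and 284 in LPS-stimulated WT and 12 and 11 in LPS-stimulated 3xGrk-/- libraries. The third were Adamts9 (0.66) for Slc14a1 and Slc2a3 (0.67), a glucose transporter gene, for Tcaf2. Elavl4 was nearest to the integrin gene Itgad (0.7), to Pf4 (0.79) and to Colec12 (0.86). Dcn was nearest to U90926 (0.67), Ifi206 (0.7) and Apol9b (0.9), the last of which had 0 to 1 counts in unstimulated libraries and 173 and 211 in LPS-stimulated 3xGrk-/- libraries. Mucl1 had no near gene by this measure, the nearest being Ear2 (0.97), an eosinophil ribonuclease gene with 600 and 794, 40 and 35, 388 and 545, and 220 and 243 counts in the same order of groups, then Wwtr1 (1.03) and Tnnt2 (1.11).

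**Figure D5:**
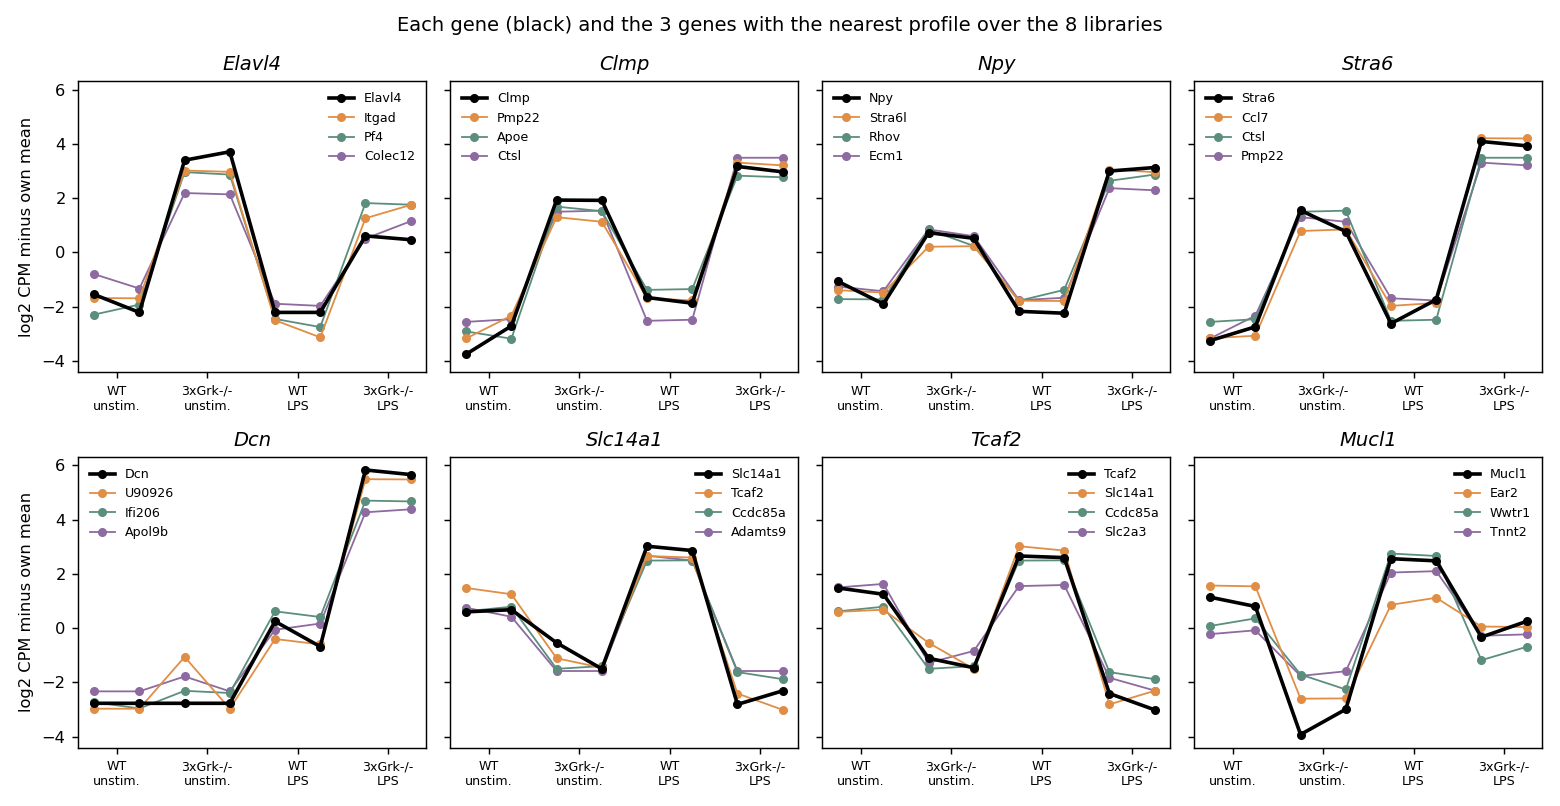
Profile of each of the 8 genes (black) and of its 3 nearest genes over the 8 libraries, as log2 CPM minus the gene's own mean. Lines join libraries only to guide the eye, the Slc14a1 and Tcaf2 panels show each gene in the panel of the other, and Ear2 in the Mucl1 panel is lower in LPS-stimulated than in unstimulated WT libraries while Mucl1 is higher.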

How the data were processed

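The 8 genes and the lists were chosen with earlier results of these data known. The authors prepared stranded mRNA libraries, ran snakePipes 2.1.0, aligned reads to mm10 (GRCm38) with STAR 2.7.3a and counted them with featureCounts 2.0.0. The annotation release and strand setting are not given in the sources used here. The deposited values are raw read counts for each gene, in 1 table per stimulation. Names and positions came from GENCODE M21, which matched 47224 of 47937 IDs.

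Each table was fitted for genotype, and all 8 libraries together for LPS, with edgeR 4.0.16 in R 4.3.3 (TMM, filterByExpr, quasi-likelihood test, two-sided, Benjamini-Hochberg adjusted p under 0.05). The fits were tested on simulated data. Genotype and LPS ratios of the 8 genes are ratios of summed scaled counts, with exact conditional binomial 95% intervals that cover counting error only; 3 counts were the floor. Alternatives were DESeq2 1.42.0, other scalings and filters, a fixed spread, a replicate block, other sets of libraries and each library left out. Named genes are the members, the targeted genes, the 3 nearest profiles per member, the 3 most changed called genes per list and stimulation, the most changed called neighbour, and genes at 0 counts. Others were named after their values were seen: Csf1r, Adgre1, Elavl1, Npy1r, Pdgfra, Mgp, Fbln1 and Slc14a2. Some genes are not reported here. Summed levels without Thy1, Hbb-bt, or Pf4 and Ppbp were added after the data were seen. Intervals of these ratios take no account of the spread between libraries.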

Additional observations from a re-analysis of the deposited data

Results flagged for a closer look

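For Slc14a1 and Tcaf2 the response to LPS went in opposite directions in the 2 genotypes, and for Npy the libraries were ordered that way on counts too low to show it. The log2 response in 3xGrk-/- cells minus that in WT cells was 3.98 for Npy, -4.44 for Slc14a1 and -2.86 for Tcaf2. In each of them both LPS-stimulated libraries of one genotype lay above both unstimulated ones, and the reverse held in the other genotype. For Npy the WT side rests on 6 unstimulated and 2 LPS counts, with a counting interval of the WT ratio, 0.0336 to 1.91, that includes 1. The difference itself was not tested.

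The list genes and neighbours named by rule held 4 whose genotypes overlapped in neither state and differed in opposite directions without and with LPS. With 2 libraries per genotype, lack of overlap is a weak criterion. How many of all genes show this pattern was not counted, so these 4 are not set apart from them. For Trpm7 unstimulated (adjusted p = 0.243, edgeR) and Epcam with LPS (adjusted p = 0.0928, edgeR) the difference was not called. The log2 difference with LPS minus that without was 3.16 for Lepr, -2.89 for Hbb-bt, 0.43 for Trpm7 and 4.55 for Epcam. Epcam had 85 and 140 counts in unstimulated WT and 7 and 9 in unstimulated 3xGrk-/- libraries, against 12 and 11 and then 18 and 20 with LPS. These differences were not tested either.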

How the results depend on the processing

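The LPS response of the 8 members is described without a test, since their selection may fix part of it. As counts that say nothing about stability, 8 to 8 were called with each library left out and 5 with a fixed coefficient of variation of 0.4. With a fixed coefficient of variation of 0.4 the calls fell to 448 genes for genotype unstimulated and 782 with LPS. The same setting called 1110 genes for LPS in WT and 850 in 3xGrk-/- cells, 17 and 24 companion genes, and 2 and 4 neighbours. DESeq2 called 3086 genes for genotype in unstimulated cells against 5369. Neighbours called within 100 kb were 4 and 7, and within 500 kb 23 and 27. Leaving out each library gave 4253 to 4788 genes for genotype unstimulated, 4460 to 5712 with LPS, 6417 to 7601 for LPS in WT and 5844 to 7410 in 3xGrk-/- cells, 40 to 42 and 51 to 59 companion genes, 8 to 9 and 10 to 14 neighbours, and 10 to 11 pairs with a ratio of at least 10. At a minimum of 10 counts in every library the members could not be tested.

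Replicate numbers were not tied to a shared animal or day, and same-numbered libraries deviated together with r of -0.0183 to 0.0325 across genes. With the replicate number as a block, 5292 and 5654 genes were called for genotype, and 7438 and 6793 for LPS in WT and 3xGrk-/- cells. The genotype fits with the block called 44 and 60 companion genes and 9 and 13 neighbours. Depth limits every ratio with 10 counts or fewer on its low side.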

Other observations

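A stricter form of the pattern was counted over all genes after the values had been seen: 3 counts or fewer in both libraries of one genotype and 20 or more in both of the other. It held for 16 genes higher in 3xGrk-/- cells unstimulated, Elavl4 and Stra6 among them, and for 60 with LPS, Npy among them. In the other direction it held for 10 genes unstimulated and 9 with LPS. In both states it held for 7 genes of 3xGrk-/- cells, none of them among the 8 described. Among these were Camk2b, which codes for a calcium-dependent kinase, Capn11, Cd22, a lectin gene known from B cells, Fcrlb, Tmem119, known from microglia, and Trim29. Tmem119 had 61 and 39 unstimulated and 52 and 58 LPS counts in 3xGrk-/- libraries against 1 to 3 in WT libraries. For WT cells the 3 genes were Cers4, a ceramide synthase gene, Naaladl1 and Prg3, an eosinophil granule gene. Naaladl1 had 25 and 40 unstimulated and 27 and 26 LPS counts in WT and 0 in all 3xGrk-/- libraries. No test was made on these genes, which were selected on the same values.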
